A study of Homo sapiens with 7 samples.

Results

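ATP-binding cassette (ABC) transporters were examined in Daoy cells, an established human medulloblastoma line. Members were the genes with an approved symbol made of ABC, a subfamily letter from A to G and a number. The RefSeq gene table gave 45 such genes among the 17217 named genes of the arrays, read by 50 of the 24000 rows, and each row stands for 1 RefSeq transcript. Wild-type, untreated cells were profiled on 7 single-colour arrays with Cy3-labelled total RNA, 3 from biological replicate 1 (arrays 1, 2 and 4) and 4 from biological replicate 2 (arrays 1 to 4). No other line or condition was among the samples used here. According to the design text, each biological replicate went to a multiplexed array format of its own, so that a difference between the cultures and a difference between the slides cannot be told apart. Arrays of 1 replicate were treated as repeats of 1 sample, which leaves n = 2 for every level. A p-value between the replicates measures only the spread between arrays.

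Most ABC proteins bind and hydrolyse ATP to move a substrate across a membrane. Full transporters carry both membrane domains and both ATP-binding domains on 1 chain, so-called half-transporters carry one of each and must pair, and the E and F subfamilies have ATP-binding domains but no membrane domain. The family is best known in tumours for drug efflux, in particular through ABCB1 (P-glycoprotein), ABCC1 and ABCG2. In the brain ABCB1 and ABCG2 are known chiefly from the endothelium of the blood-brain barrier, while other members handle cholesterol, phospholipids, fatty acids, heme precursors and cobalamin.

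The detected ABC genes included all soluble members, most transporters of mitochondria, lysosomes and peroxisomes, and 5 drug efflux pumps, but few of the sterol exporters. Values are log2 intensities, and a gene counted as above background when its brightest row exceeded 7.54, a background set at the 95th percentile of the levels of 364 olfactory receptor genes, taken here as not expressed. By this rule 22 of the 45 ABC genes (48.9%) were above background, beside 61% of all named genes. Their median level was 7.20, and the median of all named genes was 8.47. On single arrays, each against its own background, 18 ABC genes were above it on all 7 arrays, 21 on none and 6 on some. Those in between were ABCA1, ABCA4, ABCB9, ABCC9, ABCF1 and ABCG1. A value at background does not show that a transcript is missing, since the ribosomal protein gene RPLP0, used by every cell, was also there at 6.0 ± 0.03 (SD, n = 2).

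Counts by subfamily ran from all to few. Above background were ABCE1 and all 3 ABCF genes, 3 of 4 ABCD genes, 5 of 11 ABCC genes, 4 of 9 ABCB genes, 5 of 12 ABCA genes and 1 of 5 ABCG genes. By role the counts were 4 of 4 soluble ATPases, 5 of 6 mitochondrial and lysosomal half-transporters, 2 of 3 peroxisomal half-transporters, 5 of 10 drug efflux pumps, 6 of 17 cholesterol and phospholipid transporters, and 0 of 5 channel regulators and other full transporters. The lists are small, and the intensity of a row also depends on its probes, so single genes were not ranked against each other. Differences between these lists were not tested.

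**Figure D1:**
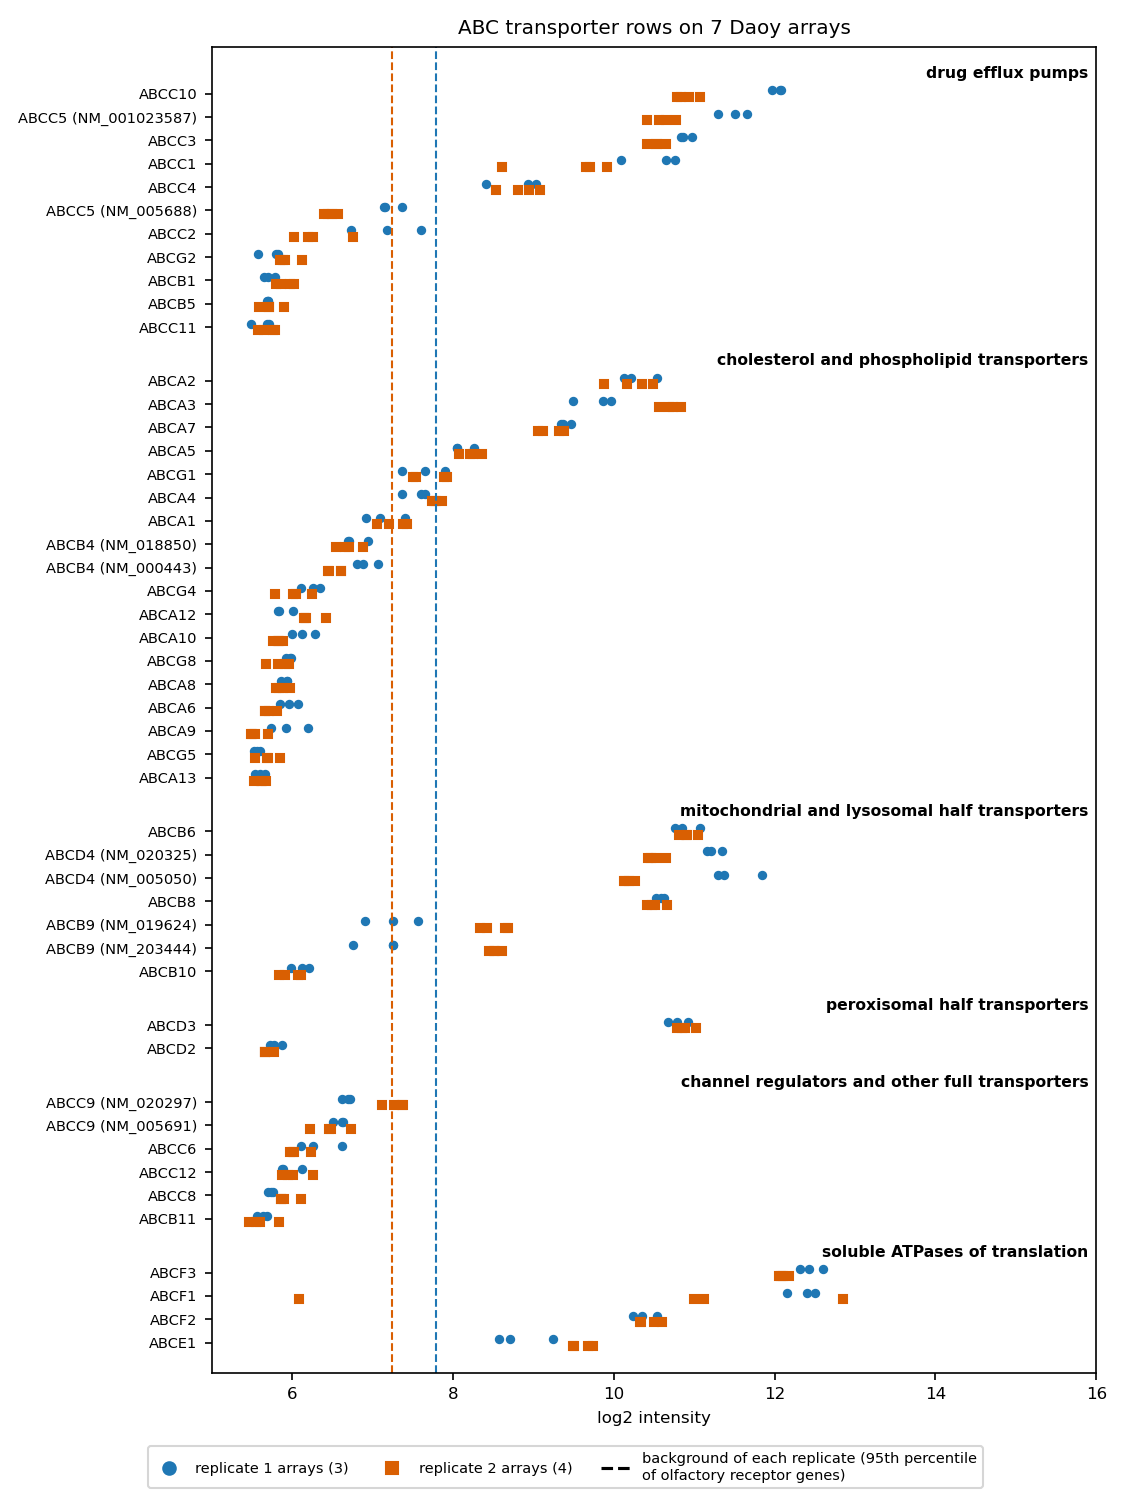
Log2 intensity (x axis) of 48 of the 50 ABC rows (listed on the y axis by role) on each array, with the 3 arrays of replicate 1 as circles and the 4 arrays of replicate 2 as squares. Dashed lines mark the background of replicate 1 (7.79) and of replicate 2 (7.24), and 22 of 45 genes had a mean level above 7.54.

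Detected ABC genes had more CG dinucleotides near their annotated start than the others, as did detected genes of the whole array. RefSeq promoter windows of 300 bases (250 before the annotated gene start and 50 after it, assembly GRCh38.p14) were matched by symbol for 35 of the 45 ABC genes. Genes above background had a median of 28.5 CG dinucleotides in the window (range 15 to 47, 16 genes), and genes at or below it had a median of 3 (range 1 to 39, 19 genes). All named genes were split the same way, with medians of 26 over 8653 genes above background and 10 over 5154 genes at or below it. None of the 14 ABC genes with fewer than 15 CG dinucleotides was above background, beside 33.7% of all named genes with such promoters. With 15 or more, 16 of 21 ABC genes (76.2%) were, beside 76.4% of all named genes. Since 15 is the lowest count among the detected ABC genes, no ABC gene below it could be above background, and the contrast with 33.7% was fixed by this choice. The split was chosen after the values were seen and describes these genes only, with no test.

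The windows of 6 genes, picked after their levels and CG counts were seen, are printed to show both ends of this range, 5′ to 3′ on the strand of the gene, with each CG dinucleotide in capitals. ABCB1 (minus strand, chr7:87713246-87713545) and ABCG2 (minus strand, chr4:88231577-88231876) are drug efflux pumps at background. ABCB10 (minus strand, chr1:229558658-229558957) was at background with a CG-rich window. ABCB9 (minus strand, chr12:122966414-122966713), ABCC10 (plus strand, chr6:43427613-43427912) and ABCF3 (plus strand, chr3:184185949-184186248) were above background.
ABCB1: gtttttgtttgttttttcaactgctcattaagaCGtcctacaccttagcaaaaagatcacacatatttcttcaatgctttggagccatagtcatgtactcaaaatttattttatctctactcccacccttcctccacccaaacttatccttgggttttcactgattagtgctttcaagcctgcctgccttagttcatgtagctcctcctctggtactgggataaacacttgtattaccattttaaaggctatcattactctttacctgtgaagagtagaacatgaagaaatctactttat
ABCG2: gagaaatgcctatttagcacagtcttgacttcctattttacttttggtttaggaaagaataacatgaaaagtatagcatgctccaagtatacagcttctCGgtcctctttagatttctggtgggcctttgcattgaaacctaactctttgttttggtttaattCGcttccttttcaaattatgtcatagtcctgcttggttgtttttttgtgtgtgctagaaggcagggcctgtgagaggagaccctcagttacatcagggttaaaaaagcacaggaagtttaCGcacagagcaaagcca
ABCB10: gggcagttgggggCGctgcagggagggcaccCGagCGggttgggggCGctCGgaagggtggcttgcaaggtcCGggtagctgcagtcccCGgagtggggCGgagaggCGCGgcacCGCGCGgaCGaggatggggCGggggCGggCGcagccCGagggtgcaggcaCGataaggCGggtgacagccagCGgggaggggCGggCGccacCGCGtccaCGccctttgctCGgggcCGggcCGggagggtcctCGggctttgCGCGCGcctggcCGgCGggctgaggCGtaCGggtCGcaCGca
ABCB9: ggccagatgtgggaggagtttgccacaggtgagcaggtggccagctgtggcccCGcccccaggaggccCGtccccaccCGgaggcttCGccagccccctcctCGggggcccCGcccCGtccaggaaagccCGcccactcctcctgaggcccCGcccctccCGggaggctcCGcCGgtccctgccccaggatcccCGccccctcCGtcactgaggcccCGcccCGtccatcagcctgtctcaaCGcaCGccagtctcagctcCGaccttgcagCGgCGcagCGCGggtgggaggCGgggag
ABCC10: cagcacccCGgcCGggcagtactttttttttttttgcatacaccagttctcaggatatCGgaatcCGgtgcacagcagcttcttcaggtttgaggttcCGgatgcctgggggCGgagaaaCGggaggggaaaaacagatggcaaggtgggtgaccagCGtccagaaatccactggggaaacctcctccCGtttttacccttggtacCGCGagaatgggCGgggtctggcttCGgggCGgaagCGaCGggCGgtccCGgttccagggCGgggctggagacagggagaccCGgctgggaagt
ABCF3: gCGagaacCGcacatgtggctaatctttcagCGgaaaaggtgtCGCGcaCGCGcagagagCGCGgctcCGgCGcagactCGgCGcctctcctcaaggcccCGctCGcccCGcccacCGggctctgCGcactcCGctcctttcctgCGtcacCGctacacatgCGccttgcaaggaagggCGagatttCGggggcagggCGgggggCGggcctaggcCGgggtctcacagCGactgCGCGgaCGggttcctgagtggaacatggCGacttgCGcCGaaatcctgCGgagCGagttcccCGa
The windows of ABCB1 and ABCG2 hold 1 and 3 CG dinucleotides, those of ABCC10, ABCB9, ABCF3 and ABCB10 hold 20, 24, 37 and 39. The GC box GGGCGG, searched on both strands, occurred 5 times in the window of ABCC10, 6 times in that of ABCB9, 3 times in that of ABCF3 and 4 times in that of ABCB10, and it was found in 45% of all 35116 promoter windows. Over the ABC genes it occurred in 13 of 16 windows of genes above background and in 5 of 19 of the others (81.2% and 26.3%). The same split over all named genes was 70% and 43.6%. The CCAAT box, on both strands, was in 6 of the 35 ABC windows and in 34.6% of all windows, and the letters TATAAA in 5 of 35 and in 11.5%. The annotated start can lie far from the start used in a given cell, for ABCB1 and ABCG2 as for any gene. Their low counts thus describe the printed windows and not every promoter of these genes. A match of letters is a description.

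**Figure D2:**
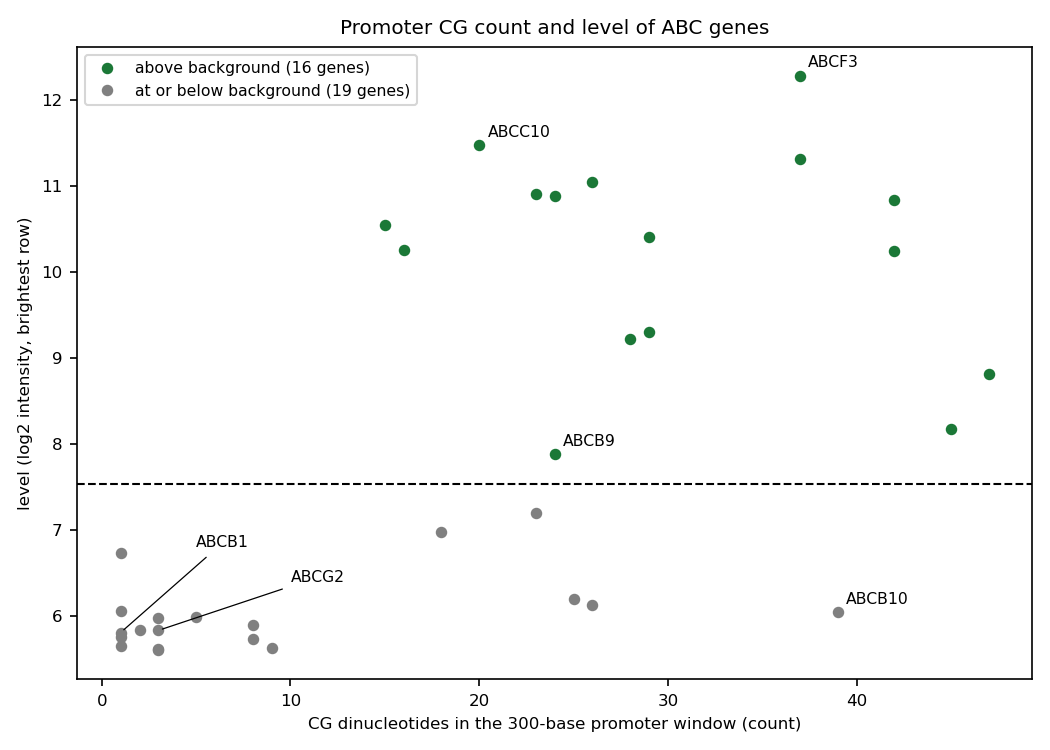
Level of 35 ABC genes (log2 intensity of the brightest row, y axis) against the count of CG dinucleotides in the 300-base promoter window (x axis), with the background of 7.54 dashed and the printed genes named. The 16 genes above background have 15 to 47 CG dinucleotides, while 14 of the 19 others have fewer than 15.

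The best known drug efflux pumps, ABCB1 and ABCG2, were at background on every array, whereas 5 pumps of the ABCC subfamily were above it. ABCB1 exports many lipophilic drugs. Its values were 5.70, 5.78 and 5.64 on the arrays of replicate 1 and 5.86, 5.98, 6.03 and 5.80 on those of replicate 2, all close to the median of olfactory receptor genes (5.79). ABCG2, the breast cancer resistance protein, read 5.58, 5.82 and 5.79 in replicate 1 and 6.13, 5.91, 5.88 and 5.85 in replicate 2. Both rows had higher values on all arrays of replicate 2, but neither difference passed the test (limma, adjusted p = 0.102 and 0.134), and both replicates were below background. ABCB5, reported to export doxorubicin, was at 5.68, 5.70 and 5.70 in replicate 1 and 5.71, 5.71, 5.90 and 5.59 in replicate 2. ABCC11, an exporter known from the secretory cells of sweat glands, was at 5.71, 5.69 and 5.48 against 5.75, 5.79, 5.57 and 5.64. For these last genes the replicates overlapped.

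Detected pumps were ABCC1, ABCC3, ABCC4, ABCC5 and ABCC10, and 4 of these 5 were lower in replicate 2, where 27.5% of all rows above background were lower. ABCC10 (MRP7), which exports taxanes, read 12.08, 12.07 and 11.97 in replicate 1 and 10.79, 11.08, 10.94 and 10.83 in replicate 2. The replicates lay well apart, and the row fell by 1.13 ± 0.10 (SE), a 2.19-fold difference (limma, adjusted p = 3.25e-05). ABCC1 (MRP1), an exporter of glutathione conjugates and of many cytotoxic drugs, was at 10.09, 10.76 and 10.65 in replicate 1 and at 9.70, 9.91, 8.61 and 9.65 in replicate 2. Its array 3 of replicate 2 lay about 1 below the others, and the difference of -1.04 ± 0.30 (SE, limma adjusted p = 0.0175) was -0.75 without that array (limma adjusted p = 0.01). The call ended without array 2 or array 4 of replicate 1 (limma adjusted p = 0.0629 and 0.0595). ABCC3 (MRP3), an exporter of glucuronides and bile salts, read 10.98, 10.84 and 10.86 against 10.54, 10.65, 10.53 and 10.42, and with no overlap it fell by 0.36 ± 0.09 (SE, limma adjusted p = 0.0116). ABCC4 (MRP4), which exports cyclic nucleotides and prostaglandins, was the pump above background without a called difference. Its arrays read 8.94, 8.41 and 9.03 in replicate 1 and 9.08, 8.54, 8.81 and 8.95 in replicate 2, with the lowest value on array 2 of each replicate, and the difference was 0.05 ± 0.18 (SE, limma adjusted p = 0.827).

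ABCC5 (MRP5), an exporter of cyclic nucleotides and nucleoside analogues, was read by a pair of rows, 1 above background and 1 below it, that both passed as lower in replicate 2. NM_001023587 read 11.51, 11.29 and 11.65 in replicate 1 and 10.65, 10.42, 10.57 and 10.77 in replicate 2, and it fell by 0.88 ± 0.12 (SE, limma adjusted p = 0.000366). NM_005688 read 7.14, 7.37 and 7.16 against 6.45, 6.49, 6.57 and 6.39, which is below the background of each replicate. This row also passed the test (limma adjusted p = 0.000255), at a log2 difference of -0.75, for which no fold is given at background. Levels of different probes are not compared here, and which exons these probes read is not given in the sources used here. ABCC2 (MRP2), the apical exporter of conjugates in liver and gut, was below the background of both replicates at 7.18, 7.60 and 6.72 and at 6.25, 6.75, 6.20 and 6.02. It passed as lower in replicate 2 (limma adjusted p = 0.0107) with arrays that overlapped narrowly.

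Over the list, 6 of 11 pump rows were lower in replicate 2, 0 were higher and 5 did not pass. Of all 24000 rows 48.8% passed, 24.6% higher and 24.2% lower. The count of lower pump rows was 5 to 6 when any 1 array was left out, and it was 6 with the array number as a block and with either other centring of the arrays. The median difference of the pump rows was -0.36, beside -0.01 over all rows. Of the 6 rows, ABCC2 and NM_005688 were at background, so 4 falls concern detected transcripts.

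**Figure D3:**
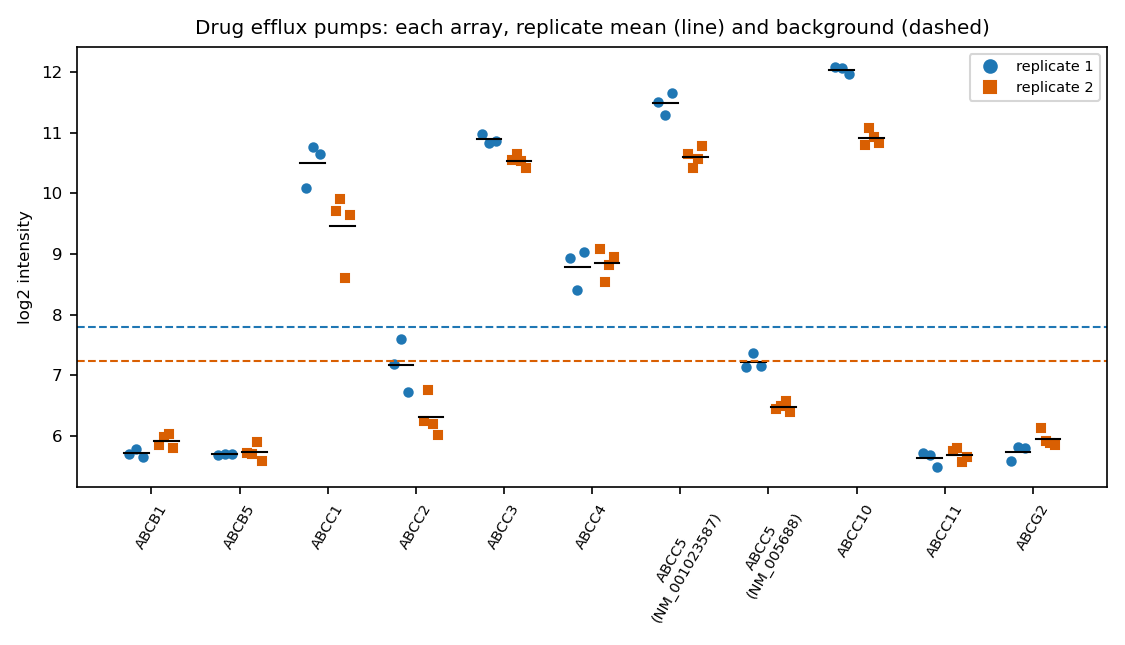
Log2 intensity (y axis) of the 11 rows of the 10 drug efflux pumps on each array, with circles for replicate 1, squares for replicate 2, a line at each replicate mean and a dashed line at each background. ABCB1, ABCB5, ABCC11 and ABCG2 lie below both backgrounds, and ABCC1, ABCC3, ABCC10 and NM_001023587 of ABCC5 are lower on every array of replicate 2.

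Among the cholesterol and phospholipid transporters 6 of 17 genes were above background, with ABCA2, ABCA3, ABCA5 and ABCA7 above it in both replicates. The classical sterol exporters were at or near background. ABCA2, a lipid transporter of endosomes and lysosomes that is abundant in brain, read 10.22, 10.54 and 10.13 in replicate 1 and 10.35, 10.49, 10.16 and 9.88 in replicate 2. The replicates overlapped (limma, adjusted p = 0.718). ABCA3, which loads phospholipid into the lamellar bodies of lung cells, read 9.97, 9.87 and 9.50 against 10.69, 10.84, 10.74 and 10.56. It was higher on every array of replicate 2 and rose by 0.93 ± 0.13 (SE), or 1.90-fold (limma, adjusted p = 0.00039). ABCA7, a phospholipid transporter and a known risk gene of Alzheimer's disease, was at 9.31 ± 0.12 (SD, n = 2), and ABCA5, a lysosomal lipid transporter, at 8.17 ± 0.07.

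ABCA1, the exporter of cholesterol to apolipoprotein A-I, was at 7.20 ± 0.09 (SD, n = 2), with arrays from 6.92 to 7.43 around the background. ABCG1, which passes sterol to high-density lipoprotein, was at 7.68 ± 0.05. It exceeded the overall background of 7.54 but not that of replicate 1 (7.64 against 7.79). The retinal transporter ABCA4 was in the same position, with 7.54 in replicate 1 and 7.79 in replicate 2. Below background stood ABCG4 (6.13 ± 0.15), the sterol exporters of gut and liver ABCG5 (5.63 ± 0.09) and ABCG8 (5.90 ± 0.08), and the keratinocyte lipid transporter ABCA12 (6.06 ± 0.23). ABCA13 was at 5.60 ± 0.01 and ABCA8 at 5.89 ± 0.03. The phosphatidylcholine exporter of bile, ABCB4, had rows at 6.73 ± 0.28 and 6.74 ± 0.06.

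In this list 2 of 18 rows were higher in replicate 2, 3 were lower and 13 did not pass, a share called of 27.8% beside 48.8% of all rows. Apart from ABCA3 the called rows were ABCA12 (0.33), ABCA9 (-0.40), ABCA10 (-0.31) and the NM_000443 row of ABCB4 (-0.39), all at background in both replicates. With the array number fitted as a block, which gives array 3 of replicate 2 no part in the difference, ABCA9 no longer passed (limma adjusted p = 0.0515). Its call ended also without array 2 or 4 of replicate 1 or array 3 of replicate 2 (limma adjusted p = 0.0505 to 0.0683). The call of ABCA10 ended without array 1 or 4 of either replicate (limma adjusted p = 0.0529 to 0.0934), and that of ABCA12 without array 2 or 4 of replicate 1 or array 3 of replicate 2 (limma adjusted p = 0.0656 to 0.0806). ABCA12 was also not called when arrays were centred on housekeeping genes (limma adjusted p = 0.244).

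Half-transporters of mitochondria and lysosomes were mostly detected, and their replicate differences lay in ABCB9 and ABCD4. ABCB6, a porphyrin transporter, read 10.85, 11.07 and 10.76 in replicate 1 and 10.82, 11.05, 10.90 and 10.89 in replicate 2, with overlap (limma, adjusted p = 0.88). ABCB8 of the inner mitochondrial membrane was at 10.55 ± 0.05 (SD, n = 2). ABCB10, a mitochondrial protein needed for heme synthesis in erythroid cells, was the member of this list at background, at 6.04 ± 0.09.

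ABCB9, a lysosomal peptide transporter, was the gene whose mean lay below background in replicate 1 and above it in replicate 2 by more than 1. NM_019624 read 6.91, 7.56 and 7.25 in replicate 1 and 8.65, 8.43, 8.33 and 8.69 in replicate 2. NM_203444 read 7.26, 6.76 and 7.26 against 8.51, 8.45, 8.61 and 8.53. No array overlapped in either row. Set against the background of replicate 1, each row was at least 1.66-fold higher in replicate 2, and the fitted differences were 1.29 ± 0.16 and 1.43 ± 0.13 (SE, limma adjusted p = 0.000209 and 4.26e-05).

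ABCD4, which works with LMBD1 in the release of cobalamin from lysosomes, moved the other way. NM_005050 read 11.37, 11.85 and 11.29 in replicate 1 and 10.19, 10.12, 10.14 and 10.26 in replicate 2, and the row fell by 1.33 ± 0.14 (SE), a 2.51-fold difference (limma adjusted p = 7.16e-05). NM_020325 read 11.16, 11.35 and 11.21 against 10.47, 10.64, 10.53 and 10.42, and it fell by 0.72 ± 0.10 (SE, limma adjusted p = 0.000303). Both rows thus separated the replicates.

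Among the peroxisomal half-transporters ABCD3 was detected and ABCD2 was not. ABCD3, which imports branched and long chain acyl groups, read 10.68, 10.78 and 10.92 in replicate 1 and 10.79, 10.85, 11.02 and 10.88 in replicate 2, with overlap (limma, adjusted p = 0.462). ABCD2, a fatty acid transporter of peroxisomes, was at 5.74 ± 0.07 (SD, n = 2).

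Channel regulators and the remaining full transporters were at background. ABCC8, the sulfonylurea receptor of pancreatic beta cells, was at 5.83 ± 0.14 (SD, n = 2). ABCC9, its relative in muscle, was read at 6.53 ± 0.08 by NM_005691 and at 6.98 ± 0.43 by NM_020297. The latter passed as higher in replicate 2 (limma adjusted p = 0.000843), where its mean of 7.28 was just past the background of 7.24. The pore subunits these regulators pair with, KCNJ8 and KCNJ11, were 0 of 2 above background. ABCC6, mutated in pseudoxanthoma elasticum, was at 6.20 ± 0.19, ABCC12 at 5.99 ± 0.05 and the bile salt export pump ABCB11 at 5.62 ± 0.02. ABCC6 has near-identical pseudogene copies, so its row is uncertain.

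The 4 soluble ATPases were above background, and ABCF1 varied widely within replicate 2. ABCE1, which splits ribosomes after termination, read 8.71, 8.57 and 9.24 in replicate 1 and 9.49, 9.50, 9.68 and 9.74 in replicate 2. It was higher on every array of replicate 2 and rose by 0.76 ± 0.16 (SE), or 1.70-fold (limma, adjusted p = 0.00358). ABCF3, whose yeast relative Gcn20 acts in amino acid sensing, read 12.60, 12.32 and 12.42 against 12.11, 12.18, 12.08 and 12.06. It fell by 0.34 ± 0.10 (SE, limma adjusted p = 0.0161), and the call ended without array 1 of replicate 1 (limma adjusted p = 0.0626). ABCF2 read 10.35, 10.54 and 10.24 against 10.32, 10.59, 10.51 and 10.33, with overlap (limma, adjusted p = 0.668).

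ABCF1, which binds initiation factor eIF2 and ribosomes, read 12.15, 12.50 and 12.40 in replicate 1 and 10.99, 11.12, 6.08 and 12.85 in replicate 2. Array 3 of replicate 2 was thus below its background of 7.34 while array 4 was the highest of all, and the SD between arrays of replicate 2 was 2.91, beside a median of 0.12 over the ABC rows. The difference of -2.09 ± 1.28 (SE) did not pass (limma, adjusted p = 0.208), and it was -0.69 without array 3 (limma adjusted p = 0.226). The gene was read by 1 row, so no other row could be compared.

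The replicates differed in a part of the family, in both directions. Of 50 ABC rows, 19 passed the test (limma, Benjamini-Hochberg over all rows, adjusted p under 0.05), 7 higher and 12 lower in replicate 2, which is 38% beside 48.8% of all rows. Among rows above background the counts were 12 of 24 ABC rows (5 higher, 7 lower) and 56% of all such rows (28.6% higher, 27.5% lower). With the array number as a block 18 ABC rows passed, beside 53.8% of all rows. A log2 difference of at least 1 as well was seen in 5 ABC rows, beside 10.2% of all rows. These 5 were the ABCB9 rows, ABCC10, ABCC1 and NM_005050 of ABCD4. The ABCB9 rows were below background in replicate 1, and their bound of 1.66-fold against that background does not reach a log2 difference of 1. The arrays of 1 replicate all lay on the same side of those of the other in 23 ABC rows, 11 higher and 12 lower, and in 51.7% of all rows. The median absolute difference was 0.21 over the ABC rows and 0.33 over all rows, and above background it was 0.31 and 0.41. No test of the family against other rows was made. When each array was centred on housekeeping genes the median of all rows moved from -0.01 to -0.15, and 5 ABC rows were then called higher and 14 lower. With this centring 45% of all rows were called.

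**Figure D4:**
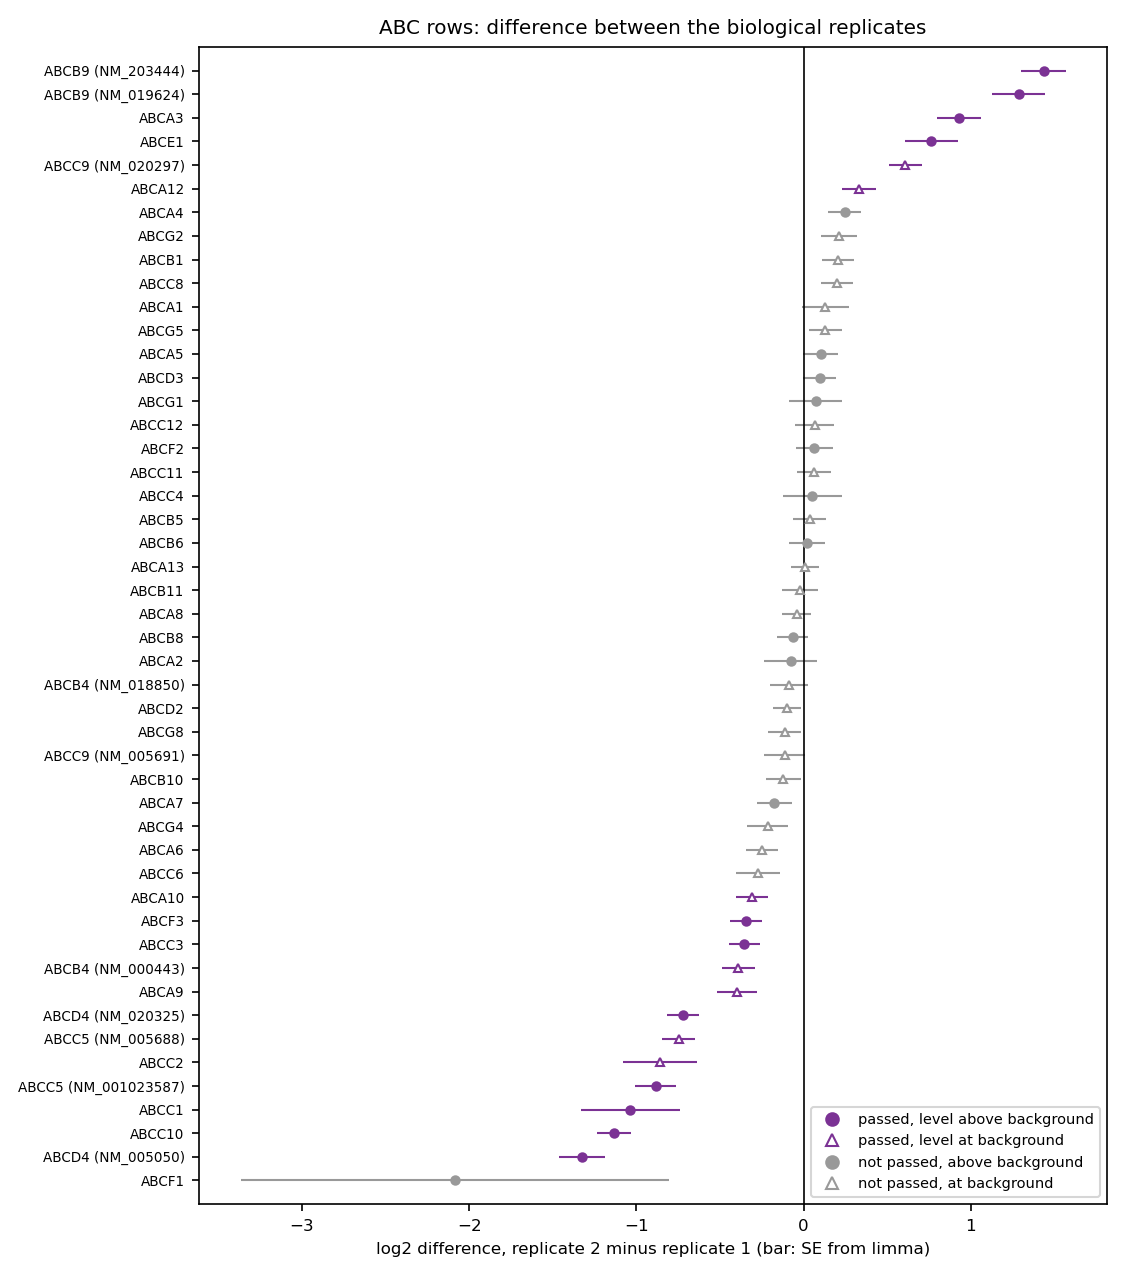
Log2 difference of 48 ABC rows between the replicates (x axis, replicate 2 minus replicate 1, bars are the SE from limma), with filled symbols for levels above background and purple for rows past the test. Passed differences include -1.33 for ABCD4, -1.13 for ABCC10 and 0.93 for ABCA3, those of ABCB9 start from a replicate 1 value below background, and ABCF1 at -2.09 has the widest error and did not pass.

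By subfamily, the called rows were 7 of 13 in ABCC (1 higher, 6 lower), 3 of 5 in ABCD (1 higher, 2 lower), 4 of 12 in ABCA (2 higher, 2 lower), 3 of 11 in ABCB (2 higher, 1 lower), 1 of 3 in ABCF (lower), 1 of 1 in ABCE (higher) and 0 of 5 in ABCG. Over all rows 48.8% were called, and with so few rows a subfamily these counts were not tested against that share. The ABCG rows had limma adjusted p-values from 0.134 to 0.731, so their differences were not detectable with these arrays.

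Genes that neighbour each other in the annotation did not share their level throughout. ABCA8, ABCA9, ABCA6, ABCA10 and ABCA5 follow each other with no coding gene between them, and the first 4 were at background (5.89 ± 0.03, 5.75 ± 0.28, 5.84 ± 0.18 and 5.98 ± 0.22, SD, n = 2), while ABCA5 at the end of the row was above it. ABCC1 lies next to ABCC6, which was at background. In the pairs ABCB4 and ABCB1, ABCC12 and ABCC11, and ABCG5 and ABCG8, both genes were at background.

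Partners of these proteins were read from lists of 2 to 19 genes, and their counts stand beside 61% of all named genes above background and 48.8% of all rows called (24.6% higher, 24.2% lower). Regulators and acceptors of cholesterol efflux were above background in 13 of 15 genes, with 7 rows higher, 3 lower and 5 not passed. They include the sterol-sensing receptors NR1H2, at 10.33 ± 0.52 (SD, n = 2), and NR1H3, at 8.09 ± 0.01, and the acceptor APOE, at 10.56 ± 0.45. The gene of the acceptor apolipoprotein A-I, APOA1, was at background in both replicates (5.96 ± 0.28). The receptor RXRB was at 11.89 ± 0.40, and called differences included 1.52 for the lipid synthesis factor SREBF1 and -0.91 for the sterol-binding OSBP (limma, adjusted p = 4.5e-05 and 0.00753). Xenobiotic regulators of efflux pumps were above background in 8 of 12 genes, with 3 rows higher, 2 lower and 9 not passed. NFE2L2, which drives antioxidant genes, was at 11.49 ± 0.02 and its inhibitor KEAP1 at 11.68 ± 0.04, whereas the xenobiotic receptor NR1I2 was at background in both of its rows (6.16 ± 0.07 and 6.29 ± 0.03). The cold shock protein YBX1 was at 14.85 ± 0.02. The share of rows called in this list was 35.7%. ARNT fell by 0.82 (limma, adjusted p = 0.0184), and NR1I3 read 6.44 in replicate 1, below background, and 7.96 in replicate 2 (limma, adjusted p = 7.64e-06).

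Glutathione synthesis and conjugation, which makes substrates of the ABCC pumps, had 13 of 15 genes above background, with 6 rows higher, 5 lower and 7 not passed. Across the lists of this paragraph the share of rows called ran from 27.3% (iron-sulfur and heme synthesis) to 62.5% (cobalamin handling), beside 48.8% of all rows, and 61% of all named genes were above background. GSTP1 was at 12.56 ± 0.16 (SD, n = 2), 1 row of MGST1 rose by 0.94 and GCLC, the limiting enzyme of glutathione synthesis, fell by 0.97 (limma, adjusted p = 0.000247 and 0.0129). The other MGST1 rows, with differences of 0.09 and -0.44, did not pass (limma, adjusted p = 0.502 and 0.687). Peroxisome import and beta-oxidation had 16 of 19 genes above background, 6 rows higher, 6 lower and 9 not passed. HSD17B4 was at 11.90 ± 0.43, PEX14 rose by 1.24 (limma, adjusted p = 0.000108), and PEX7 passed as lower at background. Iron-sulfur and heme synthesis had 18 of 19 genes above background, 2 rows higher, 4 lower and 16 not passed, with ALAS1 at 12.46 ± 0.07, a difference of 1.31 in UROD and of -0.67 in 1 of the rows of ISCU (limma, adjusted p = 0.00145 and 0.00113). Ribosome recycling and the GCN2 pathway had 11 of 13 genes above background, 5 rows higher, 3 lower and 5 not passed, with GCN1 at 13.04 ± 0.31, EIF1AX, below background in replicate 1, at a difference of 0.86 and EIF3J at -0.83 (limma, adjusted p = 0.000351 and 0.00122). All 8 genes of cobalamin handling were above background, 2 rows higher, 3 lower and 3 not passed. MMUT was at 11.02 ± 0.50, the receptor CD320 rose by 0.84, and MTRR fell by 0.83 (limma, adjusted p = 0.00122 and 0.000149).

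ABC proteins that carry other symbols were not members, namely the chloride channel CFTR and the peptide transporters TAP1 and TAP2. CFTR was at background (6.09 ± 0.03, SD, n = 2) and TAP1 at 11.58 ± 0.22. TAP2 was at 9.42 ± 0.38 and 11.00 ± 0.13 in its rows.

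The cell type was checked with short marker lists. Mesenchymal markers were above background in 8 of 8 genes and neuronal markers in 4 of 7, beside 61% of all named genes. The neuronal members above it were NEFL (11.65), TUBB3 (10.62), SYP (10.02) and, narrowly, MAP2 (7.55). SNAP25 (7.02), STMN2 (5.94) and DCX (5.60) were at background. Of other cell types, endothelial markers were above it in 4 of 8, epithelial in 3 of 8, hepatocyte in 2 of 8 and leukocyte in 1 of 8. Members at background included CDH5 (endothelial), ALB (hepatocyte), PTPRC (leukocyte) and CDH1 (epithelial), at 5.82, 6.29, 5.72 and 5.54. Members above background were TIE1 (9.42), ESAM (8.74), TEK (8.39) and PECAM1 (7.62) of the endothelial list. In the hepatocyte list they were SERPINA1 (10.77) and TF (8.14), and in the leukocyte list CD68 (10.11). The epithelial list had KRT8 (11.80), KRT18 (13.61) and CLDN4 (8.08). Of these genes PECAM1 and, narrowly, CLDN4 were below the background of replicate 1 (7.79), and TF was below that of replicate 2 (7.24). Mean levels of the endothelial list were 7.34 to 7.51 on arrays of replicate 1 and 7.28 to 7.34 on arrays of replicate 2, those of the hepatocyte list 6.85 to 6.99 and 6.53 to 6.76, of the leukocyte list 6.56 to 6.65 and 6.70 to 6.86, and of the epithelial list 7.92 to 7.96 and 8.14 to 8.22. Rows passed in both directions in the endothelial, hepatocyte and epithelial lists, and only as higher in the leukocyte list. The counts were 2 higher and 2 lower of 8 endothelial rows, and 2 higher and 3 lower of 9 hepatocyte rows. Of 10 leukocyte rows 3 were higher and 0 lower, and of 10 epithelial rows 3 were higher and 2 lower. The shares called were 50%, 55.6%, 30% and 50% in this order, beside 48.8% of all rows (24.6% higher, 24.2% lower). Single genes lay far from the rest, such as TF (-2.16, to below background in replicate 2), TIE1 (-1.67) and KRT19 (1.95, from below background in replicate 1). The part of these lists in the ABC differences was not tested. Every array had a median of 8.15, and the number of arrays limits the precision.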

How the data were processed

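Per the labels, the RNA was extracted with TRIzol, purified again on RNeasy columns and labelled by Klenow extension of Cy3-coupled primers. The deposited values are log2 intensities, 1 for each of 24000 RefSeq accessions on 7 arrays, and RMA and limma are named in the submitters' processing notes. The log base was taken as 2 by the convention of RMA. Sorted columns were equal within 0.002, so the authors had normalized by quantiles. No detection call or probe sequence was used.

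Accessions were named without version through a RefSeq table of GRCh38.p14. Of the rows 19125 matched 1 symbol, 0 several and 4875 none. A level is the mean over both biological replicates, each first averaged over its arrays, and its SD has n = 2. Replicates were compared over all rows with limma 3.58.1 (R 4.3.3, lmFit and eBayes, Benjamini-Hochberg threshold 0.05), run first on simulated data. There 70% of rows changed by a log2 difference of 1 and 17% of those changed by 0.5 were called. The simulated noise was independent between arrays and few rows were changed, unlike in these data, so error rates here do not follow from that run. Fold changes are back-transformed log2 differences. Where 1 replicate was below its background, that background took its place, and where both were, no fold is given. Same-numbered arrays deviated together (correlations of 0.21, 0.35 and 0.40), while array 4 of replicate 1 and array 3 of replicate 2 reached 0.20, and by the rule that every same-numbered pair exceed 0.1 the number was taken to pair arrays, by the data and not by the labels, and was fitted as a block in an alternative. Replicate 1 has no array 3, so in the block fit array 3 of replicate 2 adds nothing to the difference between replicates. Members, lists and tests were chosen with earlier results of these data known. Every member was to be named (2 rows enter the counts but are not reported here), with all arrays given for pumps, soluble ATPases, the 2 highest detected members of other role lists, rows with a called difference of at least 1, and genes whose rows differ by over 1. Of partner lists, the member with the brightest row and the largest called difference each way were to be named, which ranks probes and not transcripts, and the further partners named were chosen after their values were seen. Other alternatives changed the background, the filter, the centring, the variance prior and the arrays. Protein sequences were not used here, so protein features were not analysed, and promoters took their place. What was counted in promoters, which letters were marked and which were printed was chosen after levels and counts were seen.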

Additional observations from a re-analysis of the deposited data

Results flagged for a closer look

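A single array of replicate 2 stood apart from the other 3 in 3 of the 50 ABC rows, where its gap to the nearest value exceeded Dixon's 95% critical value. Chance flags about 1 in 20 rows. ABCA12 read 6.42 on array 3 against 6.14 to 6.18 on the others, ABCC8 read 6.11 on array 4 against 5.86 to 5.90, and ABCD2 read 5.77 on array 3 against 5.66 to 5.67. All 3 rows were at background. This count covers replicate 2 only. In replicate 1, which has 3 arrays, NM_203444 of ABCB9 read 6.76 on array 2 against 7.26 on arrays 1 and 4. ABCF1 and ABCC1, with larger gaps on array 3, did not reach the critical value because their other arrays spread more widely.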

How the results depend on the processing

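The count of 22 detected ABC genes was 18 at the 99th percentile of the olfactory receptor levels, 19 when each replicate had to exceed its own background, 22 with the mean of a gene's rows, 24 without replicate 1, 19 without replicate 2 and 22 without any 1 array. Of all named genes 50.6% exceeded that 99th percentile, and 61% exceeded the main background. The ABC count was 13 with the 95th percentile of hepatocyte, leukocyte and endothelial markers (10.01), which 29.1% of all named genes exceeded. That list holds SERPINA1 and CD68, which were themselves detected. The 19 called rows were 16 to 19 without any 1 array and 18 with the array number as a block (7 higher, 11 lower). Over all rows 41.6% to 46.2% and 53.8% were called in these runs, beside 48.8% in the main run. The ABC rows called were 19 with a trended, robust prior, 16 with the shared array numbers and 14 of 45 when rows were averaged by gene. The shares called over the whole array were 49.8%, 43.6% and 49.8%. The run with shared array numbers is the run without array 3 of replicate 2, and not a separate check. The called rows were 12 (5 higher, 7 lower) when rows at or below background were removed, since 24 ABC rows were then tested. They were 5 (2 higher, 3 lower) with a difference of at least 1 required. Centring on olfactory receptor genes left 19 (7 higher, 12 lower). With the filter, the minimum difference and this centring, 56.3%, 10.2% and 48.5% of all rows tested were called. The median ABC difference of -0.05 was -0.0209 above background and -0.19 with housekeeping centring, where all rows moved by a like amount. Rows without overlap numbered 22 or 23 under either centring. They were 24 to 27 without any 1 array, but this count cannot fall when an array is removed, so these runs are no check of it. Of the 19 called rows 13 kept their call under every alternative run for single rows, 6 lost it under at least 1 (among them ABCA9, ABCA10, ABCA12, ABCC1 and ABCF3) and 0 reversed. The block ended the call of ABCA9 and of no other ABC row. Of the uncalled rows 3 passed under at least 1 alternative, ABCA6 and ABCC6 among them (limma adjusted p = 0.0259 and 0.0214 at the lowest). Low signal limits what can be said of the 23 genes at background.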
